A study of Arabidopsis thaliana with 9 samples.

Results

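Histone H3 packages DNA together with H4, H2A and H2B, and plants make it in 3 main forms. The genes described here are the 5 that encode H3.1 (AT1G09200, AT3G27360, AT5G10390, AT5G10400 and AT5G65360), the 3 that encode H3.3 (AT4G40030, AT4G40040 and AT5G10980) and the gene of the centromeric form CENH3 (AT1G01370, also HTR12). They were chosen by locus identifier, and all 9 were present among the 32823 genes of the files. The values come from mRNA sequencing of Arabidopsis thaliana seedlings 2 weeks old, grown with 16 h of light at 22 °C and 8 h of dark at 18 °C and given no treatment. Libraries were made from 3 genotypes, 3 libraries each: Col-0, the wild type, cyp71-3, a mutant of the cyclophilin gene CYP71, and se-1, a mutant of SERRATE (SE), whose product acts in microRNA processing. No other allele or agent is given for any group, and the labels do not say whether libraries of a genotype came from separate sets of plants, so the p-values rest on a spread between libraries that may be technical.

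H3.1 is made mainly in S phase and is deposited behind the replication fork by the chaperone CAF-1. H3.3 is made throughout the cell cycle and also in cells that no longer divide, and it is exchanged into transcribed chromatin outside replication with the help of chaperones such as the HIRA complex. CENH3 replaces H3 in centromeric nucleosomes, where the kinetochore is built. In plants the mRNAs of replication-dependent histones carry poly(A) tails, so that capture of mRNA on beads retains them.

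In the TAIR10.1 reference the 5 H3.1 genes had no intron, the H3.3 genes had 2 to 4, and CENH3 had 8. The H3.1 genes lie at chr1:2971571-2972334, chr3:10129105-10129937, chr5:3268847-3269594, chr5:3270172-3270957 and chr5:26119859-26120581, all on the minus strand, in the order named above. The H3.3 genes lie at chr4:18555532-18557106, chr4:18557149-18558945 and chr5:3472405-3473570, also on the minus strand, and CENH3 lies at chr1:143489-146479 on the plus strand. By that choice each H3.1 and H3.3 coding sequence held 136 codons before the stop, and that of CENH3 held 178. Translated from the reference, the 5 H3.1 genes encoded identical proteins and so did the 3 H3.3 genes, and the classes differed from each other at residues 31, 41, 87 and 90, counted without the first methionine. The coding stretch below covers codons 28 to 45, which encode residues 27 to 44 and hold the first 2 of those residues. It is shown because the classes can be told apart in it although their proteins are nearly the same, and capitals mark the 18 of 54 bases at which any of the 8 genes differ.
AT1G09200 (H3.1): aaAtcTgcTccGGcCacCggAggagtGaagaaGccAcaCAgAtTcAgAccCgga
AT3G27360 (H3.1): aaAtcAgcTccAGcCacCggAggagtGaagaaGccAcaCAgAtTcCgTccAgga
AT5G10390 (H3.1): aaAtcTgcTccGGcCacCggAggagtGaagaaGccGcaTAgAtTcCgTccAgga
AT5G10400 (H3.1): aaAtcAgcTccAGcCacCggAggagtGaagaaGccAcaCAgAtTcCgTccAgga
AT5G65360 (H3.1): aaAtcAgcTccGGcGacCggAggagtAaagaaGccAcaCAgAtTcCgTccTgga
AT4G40030 (H3.3): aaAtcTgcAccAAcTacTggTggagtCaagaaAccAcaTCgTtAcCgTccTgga
AT4G40040 (H3.3): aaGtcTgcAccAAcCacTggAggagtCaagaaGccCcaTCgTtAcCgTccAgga
AT5G10980 (H3.3): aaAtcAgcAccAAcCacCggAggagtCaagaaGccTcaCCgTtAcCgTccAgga

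Over the whole coding sequence, pairs of H3.1 genes were 80.3% to 89.5% identical, pairs of H3.3 genes 78.6% to 88.8%, and pairs across the classes 74.0% to 80.3%. The longest run of identical bases in any pair of their transcripts was 59, between AT3G27360 and AT5G10400, which share every base of the stretch above. Among the 9 transcripts, every window of 100 or 150 bases was unique to its gene, and 98.6% to 100% of the windows of 50 bases were. How fragments shared by similar copies were divided is not given in the sources used here. AT3G27360 also overlaps SDH2-1 (AT3G27380), which encodes a subunit of succinate dehydrogenase, by 328 bases on the same strand, and fragments from that stretch cannot be told apart.

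Values are FPKM (fragments per kilobase of transcript, scaled to the sequenced fragments of the library), which set genes on a scale per length. They summed to 825338 to 937136 per library. Judged by the smallest steps between low values, the deepest library had 1.56 times the depth of the least deep. The number of fragments behind a value is unknown. CYP71 itself stood at 16.9 to 19.1 FPKM in Col-0, at 3.70 to 4.41 in cyp71-3 and at 17.1 to 18.3 in se-1, and SE at 30.7 to 33.3, 32.8 to 33.3 and 25.5 to 29.0. Differences were tested with limma on log2(FPKM + 1) over the 19180 genes with a mean of at least 1 FPKM, all 9 members among them. A gene was called where its Benjamini-Hochberg adjusted p, two-sided and over all genes tested, was under 0.05. Log2 fold changes below are on that scale, with standard errors from the fit.

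In both mutants H3.1 transcripts were more abundant and H3.3 transcripts less abundant than in Col-0, and CENH3 was higher. In cyp71-3, all 5 H3.1 genes and CENH3 rose, and 2 of the 3 H3.3 genes fell, although under quantile normalization, which gives every library the same distribution of values, AT4G40030 fell, AT4G40040 was not called and AT5G10980 rose. In se-1, 3 of the 5 H3.1 genes and CENH3 rose, and the same number of H3.3 genes fell as in cyp71-3. In seedlings, fewer cells of a type and less RNA per cell cannot be told apart. Of all genes tested, 63.3% were called in cyp71-3 against Col-0 (30.6% higher and 32.7% lower) and 50.2% in se-1 against Col-0 (25.1% in each direction). With so many genes called, the 8 of 9 members called in cyp71-3 and 6 of 9 in se-1 are not taken as a result about the members, and what follows gives the direction and size of each gene's difference. The median log2 fold change was 0.71 for H3.1 genes, -0.20 for H3.3 genes and -0.01 for all genes tested in cyp71-3, and 0.34, -0.20 and 0.00 in se-1. Both comparisons share the Col-0 libraries.

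**Figure D1:**
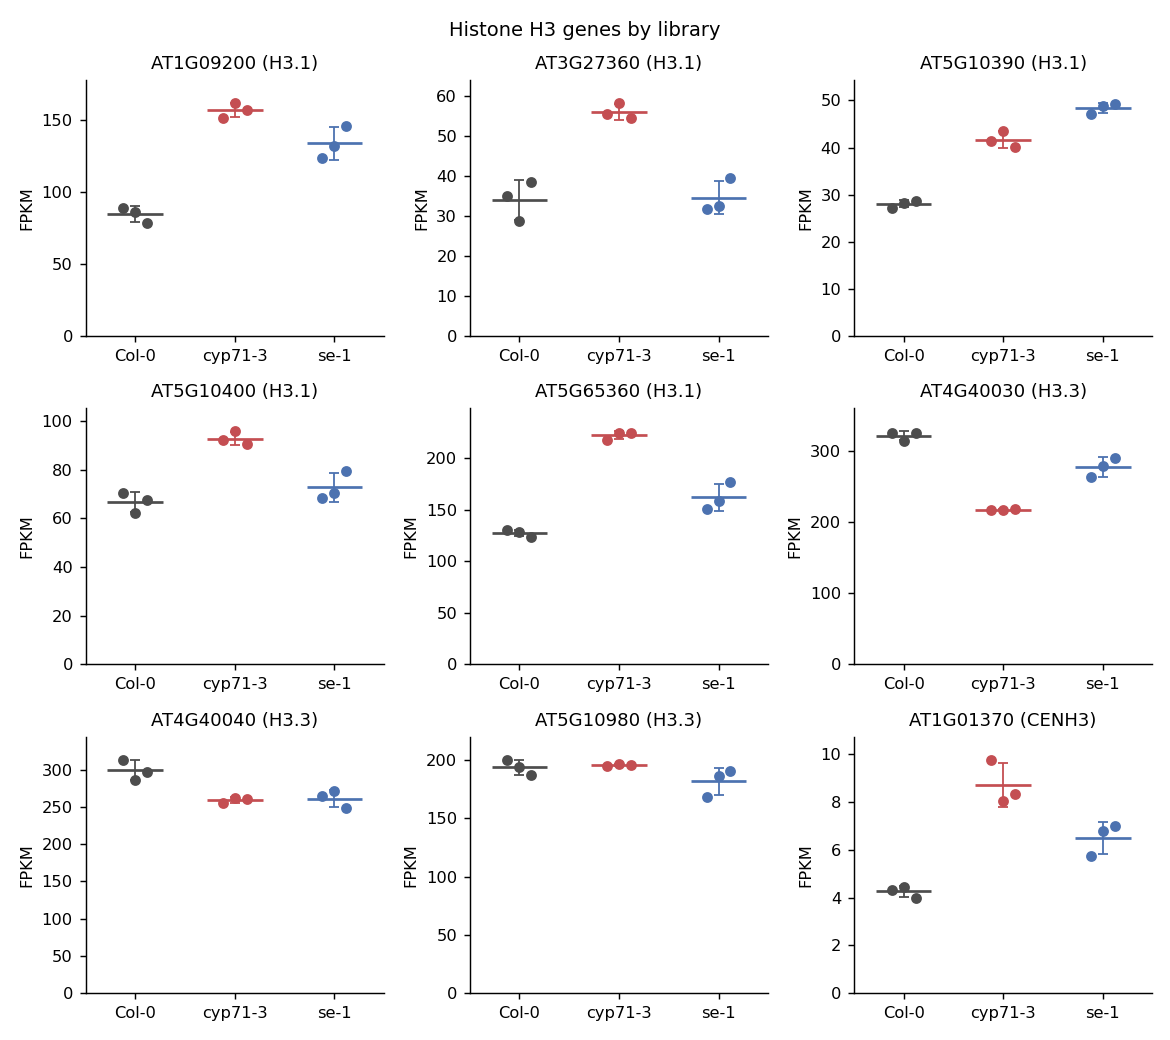
FPKM of each histone H3 gene in each library, with 1 panel per gene and its own axis from 0. Points are libraries, horizontal lines are means and bars are SD (n = 3). All 5 H3.1 panels and the CENH3 panel have cyp71-3 above Col-0, and AT4G40030 has Col-0 at 313 FPKM or more and cyp71-3 at 219 or less.

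AT5G65360 was the most abundant H3.1 gene in every genotype. It stood at 130.2, 128 and 124 FPKM in Col-0, at 218, 224 and 224 in cyp71-3 and at 151, 158 and 177 in se-1. The 3 genotypes did not overlap, with cyp71-3 above se-1 and se-1 above Col-0. The log2 fold change was 0.80 ± 0.05 (SE, n = 3 per genotype, limma adjusted p = 1.3e-07) in cyp71-3 and 0.34 ± 0.05 (limma adjusted p = 0.000198) in se-1. In cyp71-3 it made up 39.0% ± 0.586 (SD, n = 3) of summed H3.1 FPKM, against 37.4% ± 0.88 in Col-0.

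AT1G09200 came next in level and showed the largest rise of the 5 in cyp71-3. Its values were 89.0, 85.9 and 78.3 FPKM in Col-0, 152, 161 and 157 in cyp71-3 and 124, 132 and 146 in se-1. The order of the genotypes was that of AT5G65360, again without overlap. The log2 fold changes were 0.89 ± 0.06 in cyp71-3 (limma adjusted p = 2.67e-07) and 0.66 ± 0.06 in se-1 (limma adjusted p = 5.64e-06). Of all genes tested, 9.20% had a larger absolute difference in cyp71-3 and 10% in se-1.

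AT5G10390 and AT5G10400 are neighbours, 577 bases apart and transcribed in the same direction, yet they did not behave alike in se-1. AT5G10390 stood at 27.2, 28.3 and 28.6 FPKM in Col-0, at 41.3, 43.6 and 40.1 in cyp71-3 and at 47.2, 48.8 and 49.2 in se-1. It was the H3.1 gene that stood higher in se-1 than in cyp71-3, without overlap. The log2 fold change against Col-0 was 0.77 ± 0.04 in se-1 (limma adjusted p = 9.78e-08) and 0.55 ± 0.04 in cyp71-3 (limma adjusted p = 6.4e-07). Its difference between the mutants, cyp71-3 minus se-1, was -0.21 ± 0.04 (limma adjusted p = 0.00126). AT5G10400 stood at 70.3, 62.2 and 67.4 FPKM in Col-0, at 92.2, 95.7 and 90.4 in cyp71-3 and at 68.3, 70.4 and 79.6 in se-1. The cyp71-3 libraries lay above all others, while those of se-1 and Col-0 overlapped. It rose by 0.47 ± 0.06 in cyp71-3 (limma adjusted p = 3.69e-05), and its difference in se-1 was 0.12 with a 95% interval of -0.01 to 0.26 (limma adjusted p = 0.11). That gene was called in se-1 when replicate 1 of se-1 was left out (0.17, limma adjusted p = 0.0473) and under quantile normalization (0.13, limma adjusted p = 0.0429).

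AT3G27360, like AT5G10400, rose in cyp71-3 and was not called in se-1. Its values were 35.1, 28.7 and 38.6 FPKM in Col-0, 55.6, 58.3 and 54.4 in cyp71-3 and 31.8, 32.6 and 39.4 in se-1. The cyp71-3 libraries stood apart, and the Col-0 and se-1 libraries covered nearly the same range. The rise in cyp71-3 was 0.71 ± 0.10 (limma adjusted p = 8.4e-05), and the difference in se-1 was 0.02 with a 95% interval of -0.20 to 0.24 (limma adjusted p = 0.865). SDH2-1, which overlaps it, had log2 fold changes of 0.30 ± 0.05 in cyp71-3 and 0.32 ± 0.05 in se-1, and its part in the values of AT3G27360 was not tested.

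AT4G40030, an H3.3 gene, had the largest fall of any member. It stood at 324, 313 and 324 FPKM in Col-0, at 217, 216 and 219 in cyp71-3 and at 262, 279 and 289.9 in se-1. The genotypes did not overlap, with se-1 between the others. The log2 fold change was -0.56 ± 0.04 in cyp71-3 (limma adjusted p = 1.86e-07) and -0.21 ± 0.04 in se-1 (limma adjusted p = 0.00068).

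AT4G40040 lies 42 bases from AT4G40030 on the same strand and encodes the same protein. Its values were 313, 287 and 298 FPKM in Col-0, 255, 262 and 261 in cyp71-3 and 265, 271 and 248 in se-1. Both mutants lay below Col-0 and overlapped each other. The log2 fold change was -0.20 ± 0.04 in each mutant (limma adjusted p = 0.00124 in cyp71-3 and 0.00241 in se-1), and that in cyp71-3 was not called under quantile normalization (-0.08, limma adjusted p = 0.14).

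AT5G10980, the remaining H3.3 gene, stood at 199.9, 194 and 187 FPKM in Col-0, at 195, 196 and 196 in cyp71-3 and at 169, 186 and 191 in se-1. Its Col-0 libraries overlapped with those of both mutants. The difference was 0.01 in cyp71-3 (95% interval -0.08 to 0.11, limma adjusted p = 0.796) and -0.09 in se-1 (95% interval -0.19 to 0.00, limma adjusted p = 0.102). Under quantile normalization it was called higher in cyp71-3 (0.16, limma adjusted p = 0.00137), and without replicate 3 of se-1 it was called lower in se-1 (-0.13, limma adjusted p = 0.0335).

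CENH3 was the least abundant member, and its ratio of means to Col-0 was the largest of the 9 in cyp71-3. Its values were 4.33, 4.46 and 4.0 FPKM in Col-0, 9.77, 8.05 and 8.34 in cyp71-3 and 5.74, 6.77 and 6.99 in se-1. The genotypes did not overlap, and the ratio of means to Col-0 was 2.05 in cyp71-3 and 1.52 in se-1. On the log2(FPKM + 1) scale, where the added 1 shrinks the change of a gene at so low a level, the differences were 0.88 ± 0.09 (limma adjusted p = 6.7e-06) and 0.51 ± 0.09 (limma adjusted p = 0.000744).

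**Figure D2:**
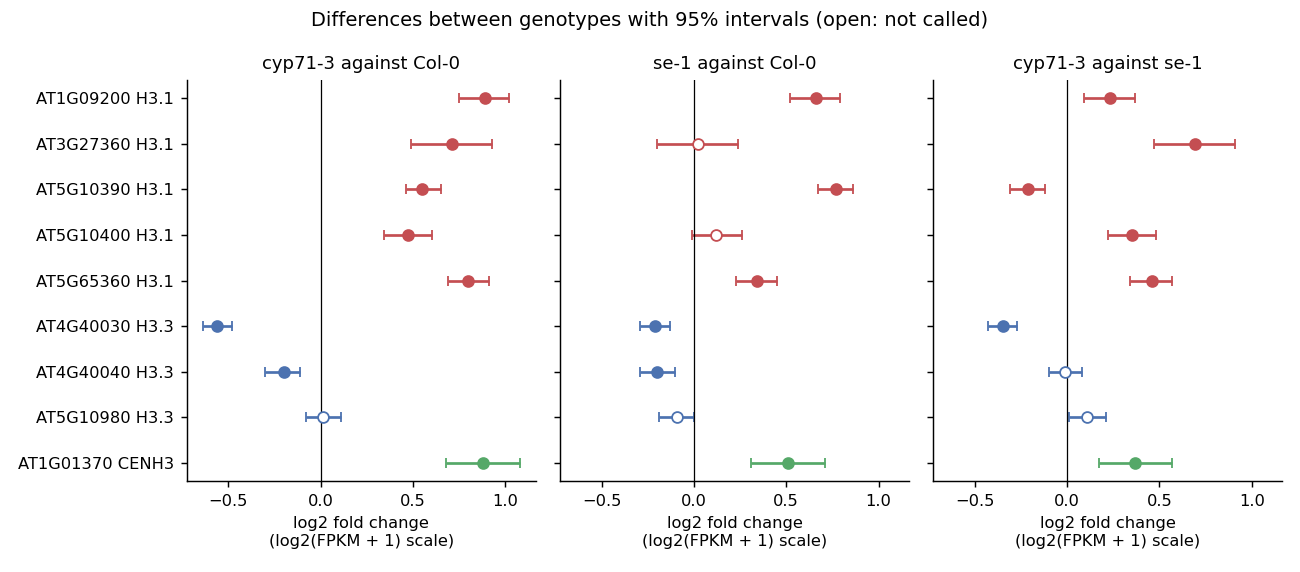
Log2 fold change of each histone H3 gene on the log2(FPKM + 1) scale in the 3 comparisons, with 95% intervals from limma (n = 3 per genotype). Filled points were called and open points were not. H3.1 genes and CENH3 lie to the right of 0 against Col-0 where called and the called H3.3 genes to the left, while under quantile normalization AT5G10980 was called higher and AT4G40040 not called in cyp71-3.

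Set against each other, the mutants differed at 7 of the 9 members, where 62.2% of all genes tested were called (30% higher and 32.2% lower in cyp71-3). AT3G27360 (0.69 ± 0.10), AT5G65360 (0.46 ± 0.05), AT5G10400 (0.35 ± 0.06), AT1G09200 (0.23 ± 0.06) and CENH3 (0.37 ± 0.09) were higher in cyp71-3, with limma adjusted p between 1.35e-05 and 0.00701. AT5G10390 and AT4G40030 (-0.35 ± 0.04, limma adjusted p = 9.52e-06) were lower. AT4G40040 was not called (-0.01, 95% interval -0.10 to 0.08), nor was AT5G10980 (0.11, 95% interval 0.01 to 0.21, limma adjusted p = 0.0538), although the latter's libraries did not overlap and it was called under quantile normalization (0.20, limma adjusted p = 0.00033) and without replicate 3 of se-1 (0.14, limma adjusted p = 0.0165). Genotypes did not overlap at 8 members in cyp71-3 against Col-0, 6 in se-1 against Col-0 and 8 between the mutants, where 70.1%, 56.7% and 66.2% of all genes tested did not.

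The levels of each class were also summed over its copies. Since FPKM divides by the length of each copy, and the spliced lengths were 704 to 833 bases for H3.1 and 818 to 1289 for H3.3, a different division of shared fragments among copies would also move these sums. Summed H3.1 was 352, 333 and 337 FPKM in Col-0, 558, 583 and 566 in cyp71-3 and 422, 441 and 491 in se-1. Summed H3.3 was 838, 794 and 809 FPKM in Col-0, 667, 675 and 675 in cyp71-3 and 696, 736 and 729 in se-1. Neither sum overlapped between any genotypes. The means of H3.1 stood at 1.67 times Col-0 in cyp71-3 and 1.33 times in se-1, and those of H3.3 at 0.826 and 0.885 times. Since the classes moved in opposite directions, the total of both changed less: it was 1127 to 1190 FPKM in Col-0, 1226 to 1258 in cyp71-3 and 1118 to 1220 in se-1, the last overlapping with Col-0.

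As a share of both classes, H3.1 took 29.6%, 29.5% and 29.4% in Col-0, 45.6%, 46.3% and 45.6% in cyp71-3 and 37.7%, 37.5% and 40.3% in se-1. The ranges were narrow within a genotype and far apart between them. Because both classes are measured in the same library, this share does not change with a library's scaling factor. No p-value is given for sums or shares over the members.

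**Figure D3:**
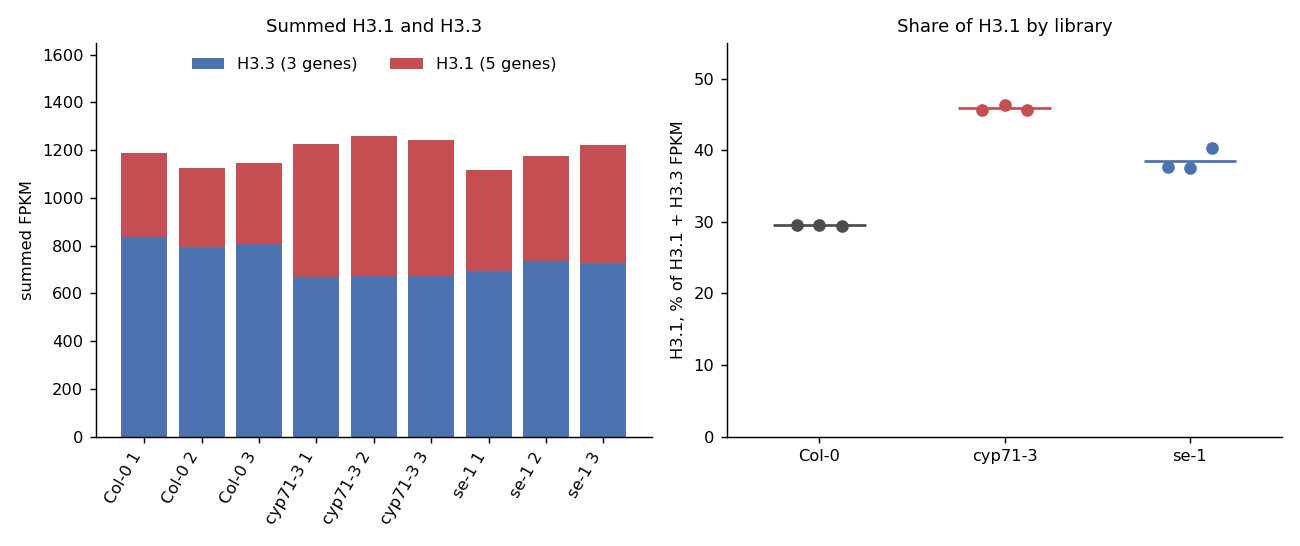
Left, summed FPKM of the 3 H3.3 genes and 5 H3.1 genes in each library, stacked from 0. Right, H3.1 as a percentage of H3.1 plus H3.3 FPKM, with points for libraries and lines for means. The share lay at 29.4% to 29.6% in Col-0, 37.5% to 40.3% in se-1 and 45.6% to 46.3% in cyp71-3, without overlap.

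The order of the genes by level also differed between genotypes. In Col-0 the 3 H3.3 genes led, AT4G40030 and AT4G40040 with overlapping ranges (means 321 and 299 FPKM) above AT5G10980 (194), and every H3.1 gene lay below them. In cyp71-3, AT4G40040 (260.0) led, AT5G65360 (222) and AT4G40030 (217) overlapped, and AT5G10980 (196) followed, so that an H3.1 gene stood above an H3.3 gene. In se-1, AT5G10980 (182) and AT5G65360 (162) overlapped, and AT5G10390 (48.4) stood above AT3G27360 (34.6), the reverse of their order in Col-0 (28 and 34.1). Their Col-0 ranges nearly touched, with AT5G10390 at most 28.63 FPKM and AT3G27360 at least 28.68. The values of AT3G27360 may also hold fragments of SDH2-1, which overlaps it. Other neighbours in each order did not overlap, except AT4G40030 and AT4G40040 in se-1, and CENH3 was lowest in all 3 genotypes.

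Promoters of plant histone genes often hold the octamer CGCGGATC, and others hold the hexamer ACGTCA, the nonamer CATCCAACG or E2F sites. All were searched on both strands of the 250 bases before each gene start in TAIR10.1, and no motif overlapped another there. The octamer occurred in 3 of 5 H3.1 promoters, in 1 of 3 H3.3 promoters and not in that of CENH3, and in 0.135% of 27431 promoters. Shown here are the H3.1 promoters with the octamer, in capitals, and that of AT5G10390, the H3.1 gene that stood higher in se-1 than in cyp71-3, which held none of the motifs. The hexamer, found in 7.69% of promoters, is in capitals in AT5G10400, where it lies on the opposite strand.
AT1G09200 (chr1:2972335-2972584, minus strand): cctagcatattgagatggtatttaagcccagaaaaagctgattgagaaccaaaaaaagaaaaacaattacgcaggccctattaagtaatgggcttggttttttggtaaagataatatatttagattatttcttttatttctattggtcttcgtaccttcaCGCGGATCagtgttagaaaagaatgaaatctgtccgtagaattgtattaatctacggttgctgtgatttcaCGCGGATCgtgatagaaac
AT5G10400 (chr5:3270958-3271207, minus strand): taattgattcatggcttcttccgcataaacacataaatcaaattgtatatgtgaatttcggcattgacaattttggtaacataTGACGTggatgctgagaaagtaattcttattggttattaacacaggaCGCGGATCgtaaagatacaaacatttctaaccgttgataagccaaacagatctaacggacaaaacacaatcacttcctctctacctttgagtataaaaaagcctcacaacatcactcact
AT5G65360 (chr5:26120582-26120831, minus strand): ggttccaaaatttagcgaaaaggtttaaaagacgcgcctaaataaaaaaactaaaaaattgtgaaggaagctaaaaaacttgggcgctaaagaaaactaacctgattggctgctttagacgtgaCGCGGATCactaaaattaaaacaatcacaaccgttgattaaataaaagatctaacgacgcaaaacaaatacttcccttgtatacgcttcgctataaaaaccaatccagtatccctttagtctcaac
AT5G10390 (chr5:3269595-3269844, minus strand): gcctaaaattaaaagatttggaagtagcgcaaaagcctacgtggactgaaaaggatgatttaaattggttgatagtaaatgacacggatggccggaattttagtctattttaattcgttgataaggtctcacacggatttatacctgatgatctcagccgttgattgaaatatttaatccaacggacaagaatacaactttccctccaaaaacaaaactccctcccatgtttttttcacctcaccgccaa

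The octamer began 90 and 19 bases before the start of AT1G09200, 120 before that of AT5G10400 and 126 before that of AT5G65360. In H3.3 it was found on the opposite strand of AT4G40040, 17 bases before the start. The hexamer was also found before AT3G27360 and at 2 places before AT5G10980. Neither the nonamer (0.149% of promoters) nor any of the E2F sites TTTCCCGC, TTTGGCGC, TTTCGCGC and TTTGCCGC (1.41% of promoters for any of them) was found before a member. The octamer was thus present before H3.1 genes that rose in both mutants (AT1G09200 and AT5G65360), before AT5G10400, called in cyp71-3 alone, and before AT4G40040, which fell. It was absent from this window of AT5G10390 and AT3G27360, which rose in both mutants and in cyp71-3, respectively. Not every window lies outside other genes: that of AT4G40030 runs into AT4G40040, and AT3G27360 overlaps SDH2-1 on the side of its start.

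Of 6 further H3 or H3-like genes on the list, 5 were in the files. HTR11 (AT5G65350), which lies 33 bases from AT5G65360, stood at 1.76, 1.94 and 2.47 FPKM in Col-0, 4.33, 3.66 and 4.98 in cyp71-3 and 1.57, 0.94 and 1.48 in se-1. It rose in cyp71-3 (0.80 ± 0.14, limma adjusted p = 0.000484) and fell in se-1 (-0.40 ± 0.14, limma adjusted p = 0.0384), so that it and its neighbour differed in direction in se-1. AT1G13370 reached at most 1.57 FPKM and AT1G75600 at most 0.44, below the level for testing. MGH3 (AT1G19890), the H3 gene of the male germ line, was listed at 0 in all libraries, and AT5G12910 was listed at 0 except at 0.31 FPKM in replicate 3 of se-1.

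For the lists from here on, counts of called genes are to be read beside the shares over all genes tested. Those shares were 30.6% higher and 32.7% lower in cyp71-3 against Col-0, and 25.1% each way in se-1. Counts near them are not taken as a result about a list. H4 is the partner of H3 in the nucleosome. Of 8 H4 genes, 7 rose and AT1G07660 fell (-0.16 ± 0.06) in cyp71-3, with a median of 0.37, and AT1G07660 was not called under quantile normalization. The largest rises were those of AT3G53730 (0.68 ± 0.06) and AT5G59690 (0.62 ± 0.04). In se-1, 3 of 8 rose, none fell and 5 were not called, with AT1G07820 at 0.63 ± 0.06 and a median of 0.11. Summed H4 was 552 to 574 FPKM in Col-0, 752 to 765 in cyp71-3 and 626 to 689 in se-1. The ratio of H3.1 plus H3.3 to H4 was therefore 2.02 to 2.07 in Col-0, 1.63 to 1.64 in cyp71-3 and 1.75 to 1.79 in se-1. That of H3.3 alone to H4 was 1.43 to 1.46, 0.882 to 0.888 and 1.06 to 1.11. That of H3.1 alone to H4 was instead higher in both mutants, without overlap: 0.593 to 0.613, 0.743 to 0.762 and 0.657 to 0.713.

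Genes of the other histones moved in both directions. Over all genes tested, 30.6% were called higher in cyp71-3 and 25.1% in se-1, and counts near those shares say little about these lists. In cyp71-3, 3 of 4 replicative H2A genes rose (median 0.19), among them HTA13 (0.52 ± 0.04) and RAT5 (0.21 ± 0.07), and in se-1 2 of 4 rose, with HTA2 at 0.34 ± 0.06. Of 8 genes of the H2A variants X, Z and W, 6 rose and HTA9 fell (-0.13 ± 0.04, not called under quantile normalization) in cyp71-3, and 5 rose in se-1. The H2A.W gene HTA6 rose by 0.96 ± 0.05 and the H2A.Z gene HTA11 by 0.68 ± 0.06 in cyp71-3, and the H2A.Z gene HTA8 led in se-1 (0.62 ± 0.04). Of 10 H2B genes, 4 rose and AT2G28720 fell (-0.83 ± 0.12) in cyp71-3, where AT3G53650 (1.22 ± 0.10) and HTB2 (0.32 ± 0.04) rose the most, and median centring called 3 and quantile normalization 6 higher. In se-1, 6 H2B genes rose, AT2G37470 the most (0.42 ± 0.07), and AT2G28720 fell (-0.74 ± 0.12). Of the 3 linker H1 genes, AT1G06760 (0.52 ± 0.05) and AT2G30620 (0.20 ± 0.04) rose in cyp71-3, while HIS1-3, a drought-inducible variant, fell in both mutants (-0.68 ± 0.10 and -0.41 ± 0.10).

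Chaperones bring H3 to DNA. The counts below stand beside 30.6% of all genes tested called higher in cyp71-3 and 25.1% in se-1. Of 6 genes of replication-coupled H3-H4 chaperones and their partners, 4 rose in each mutant and none fell (medians 0.26 and 0.30). FAS2, a subunit of CAF-1, rose by 0.42 ± 0.09 in cyp71-3 and 0.62 ± 0.09 in se-1, and TSK (TONSOKU), which recognises H3.1 during replication, rose by 0.66 ± 0.11 in cyp71-3. Of 5 genes of H3.3 chaperones, 3 rose in cyp71-3 (median 0.32), led by the UBINUCLEIN gene AT1G21610 (0.53 ± 0.07) and the CABIN1 gene AT4G32820 (0.42 ± 0.12), while the H3.3 genes fell or were not called. In se-1, AT1G77310, the other UBINUCLEIN gene, rose (0.31 ± 0.08) and HIRA fell (-0.25 ± 0.09, limma adjusted p = 0.047, with overlapping libraries), and 2 of the 5 were lower there under median centring and under quantile normalization. Of 4 genes listed for CENH3 loading and the kinetochore, 3 rose in cyp71-3 (2 under median centring and under quantile normalization) and 2 in se-1 (1 under quantile normalization). CENP-C, which binds CENH3 nucleosomes, rose by 0.61 ± 0.08 and 0.30 ± 0.08, and MIS12 by 0.38 ± 0.09 in cyp71-3.

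Of 10 genes of enzymes that modify H3, 7 rose in cyp71-3 and none fell (median 0.67), where 30.6% of all genes tested were called higher. In se-1, 6 rose and 1 fell (median 0.27), with 5 higher under quantile normalization, where 25.1% of all genes were called in each direction. The Aurora kinase genes AUR1 and AUR3, whose products phosphorylate H3 in mitosis, rose by 1.54 ± 0.08 and 1.2 ± 0.09 in cyp71-3. ATXR6, a methyltransferase of lysine 27 that acts on H3.1, led in se-1 (0.62 ± 0.13), where AUR2 fell (-0.30 ± 0.07).

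Cell cycle genes differed between the mutants. Over all genes tested, 30.6% were called higher in cyp71-3 against Col-0 and 25.1% in se-1 against Col-0. Between the mutants, 30% were called higher and 32.2% lower in cyp71-3. All 13 DNA replication genes rose in se-1 (median 0.39) and 10 in cyp71-3 (median 0.24; 9 under median centring and 11 under quantile normalization), with none lower in either. TSO2, a ribonucleotide reductase subunit, rose by 0.65 ± 0.04 and CDC6, a replication licensing factor, by 0.50 ± 0.09 in cyp71-3, and PCNA1, the sliding clamp, by 0.70 ± 0.06 in se-1. Directly between the mutants, 7 of the 13 were lower and 2 higher in cyp71-3 (median -0.14). All 15 mitosis genes rose in cyp71-3 (median 1.24), CYCB1;1 by 1.90 ± 0.08 and CYCB2;3 by 1.57 ± 0.07, whereas 6 rose in se-1 (median 0.16), CYCB2;3 the most (0.91 ± 0.07). All 15 were also higher in cyp71-3 than in se-1. Their summed level was 96.0 to 106 FPKM in Col-0, 264 to 278 in cyp71-3 and 116 to 119 in se-1, and its part in the H3 values was not tested.

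**Figure D4:**
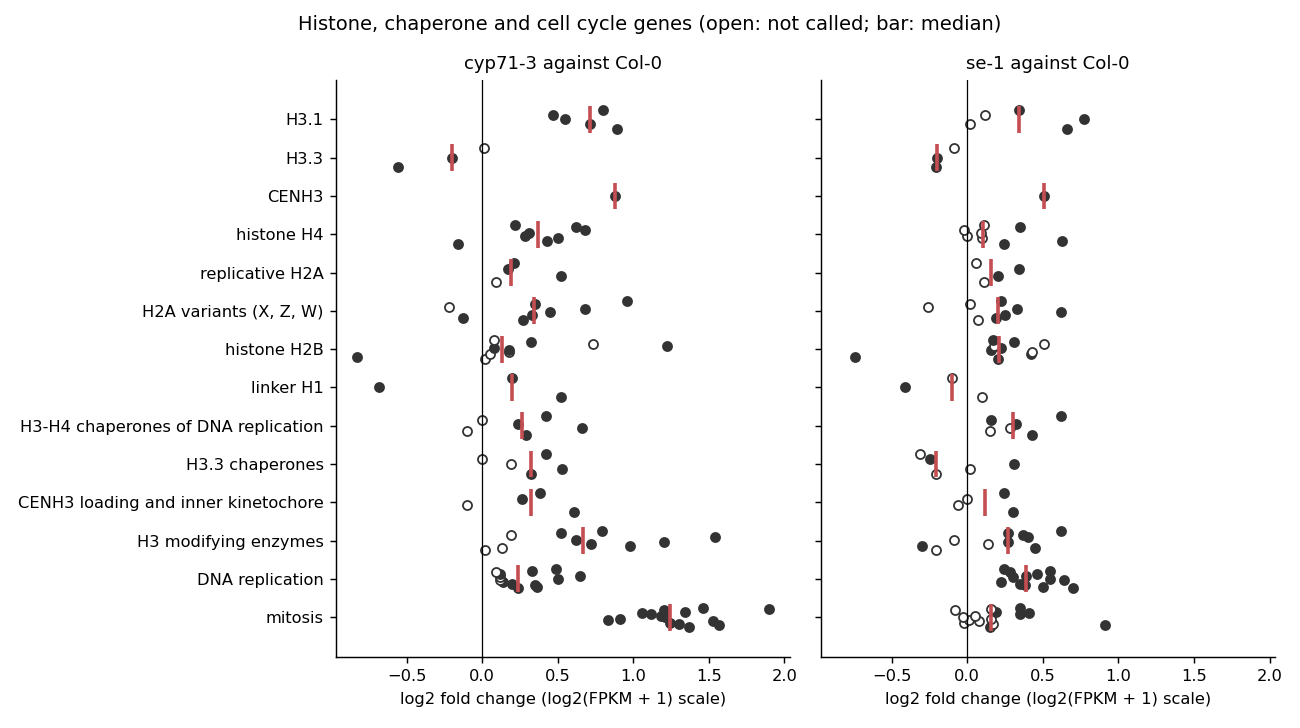
Log2 fold change of each tested gene of the H3 classes and 11 related lists against Col-0, on the log2(FPKM + 1) scale. Filled points were called, open points were not, and red bars are list medians. The median of H3.3 is -0.20 in both panels, and that in cyp71-3 is -0.08 under quantile normalization, while mitosis genes reach a median of 1.24 in cyp71-3 and 0.16 in se-1.

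Markers of organs differed between the genotypes along with the H3 genes. Shares of all genes tested called lower were 32.7% in cyp71-3 and 25.1% in se-1, and those called higher 30.6% and 25.1%. The leaf markers checked for the labelled seedlings were all detected, at 94.7 FPKM or more. Of the 6, 5 fell in each mutant, GPRI1 (also GLK1), a regulator of chloroplast genes, with -0.69 ± 0.04 in cyp71-3 and -0.77 ± 0.04 in se-1. RCA (Rubisco activase) had -0.63 ± 0.04 in cyp71-3. In se-1 the direction of the list depended on scaling, with 1 higher and 2 lower under quantile normalization. Their summed level was 38782 to 39929 FPKM in Col-0, 31619 to 32275 in cyp71-3 and 33384 to 37181 in se-1. Of 6 root markers, 4 rose and SHR fell (-0.27 ± 0.06) in cyp71-3 and 5 rose in se-1, with IRT1 at 1.53 ± 0.06 and 2.07 ± 0.06 and EXPA7 at 1.56 ± 0.10 in cyp71-3. Their summed level was 34.3 to 37.2 FPKM in Col-0, 74.8 to 77.6 in cyp71-3 and 94.0 to 98.6 in se-1. Much of that difference came from IRT1, with means of 12.6, 38.2 and 56.0 FPKM, while RHD6 was not called in either mutant.

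Of 5 shoot meristem markers, 3 were tested, and STM (0.73 ± 0.10) and KNAT1 (0.32 ± 0.07) rose while CLV1 fell (-0.25 ± 0.07) in cyp71-3, and CLV1 fell in se-1 (-0.47 ± 0.07). Summed, they stood at 30.3 to 30.7 FPKM in Col-0, 31.2 to 33.0 in cyp71-3 and 22.4 to 26.9 in se-1. Of 4 root meristem markers, 2 were tested: WOX5, a gene of the quiescent centre, rose in cyp71-3 (1.72 ± 0.13) and in se-1 (0.41 ± 0.13), and SCR fell in both (-0.52 ± 0.06 and -0.43 ± 0.06). Summed, the root meristem markers stood at 26.1 to 28.6 FPKM in Col-0, 20.7 to 23.7 in cyp71-3 and 20.9 to 21.4 in se-1. Most of that sum was SCR, with means of 25.7, 17.6 and 18.8 FPKM. The 3 pollen and sperm markers summed to at most 2.04 FPKM in any library, with DUO1 at 0 throughout. The part of organ or meristem makeup in the H3 differences was not tested.

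The genes whose profiles over the 9 libraries were most like those of the H3 classes were found by the root mean square (RMS) difference between centred log2(FPKM + 1) profiles among 14413 genes. Nearest to summed H3.1 were NDPK3 (AT4G11010), a nucleoside diphosphate kinase (RMS difference 0.032), TUB7 (AT2G29550), a beta-tubulin (0.046), PFA-DSP2 (AT2G32960), an atypical dual-specificity phosphatase (0.049), ROC5 (AT4G34870), a cyclophilin (0.049), and TSO2 (AT3G27060; 0.051). NDPK3 stood at 115, 109 and 107 FPKM in Col-0, 175, 186 and 185 in cyp71-3 and 136, 140.0 and 149 in se-1. Nearest to summed H3.3 were AT5G53540 (0.023), AT3G13040 (0.024) and the aquaporin gene TIP2;2 (AT4G17340; 0.025). Nearest to CENH3 were NDL3 (AT2G19620; 0.060), AT1G72420 (0.088) and the drought-induced gene DI21 (AT4G15910; 0.089).

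Some genes next to the members on the chromosome differed from the member and others moved with it. Of those named here, RING1 and RCAR1 were called in the opposite direction to their member. RING1 (AT5G10380), 33 bases from AT5G10390, fell in cyp71-3 (-0.85 ± 0.09) and in se-1 (-0.25 ± 0.09), while AT5G10390 rose in both. AT5G10410, 809 bases from AT5G10400, rose in cyp71-3 (0.56 ± 0.12), as AT5G10400 did. It fell in se-1 (-0.83 ± 0.12), where AT5G10400 was not called. AT5G10970 and AT5G10990, on either side of AT5G10980, both fell in cyp71-3 (-0.89 ± 0.14 and -0.45 ± 0.15), where AT5G10980 was not called. RCAR1 (AT1G01360), an abscisic acid receptor gene 227 bases from CENH3, fell in cyp71-3 (-0.48 ± 0.07) and in se-1 (-0.30 ± 0.07), while CENH3 rose in both. CRT1b (AT1G09210), a calreticulin gene 303 bases from AT1G09200, rose in cyp71-3 (0.24 ± 0.03) and in se-1 (0.17 ± 0.03), as AT1G09200 did.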

How the data were processed

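The values deposited by the authors are FPKM of each gene, rounded to 2 decimals, in 1 table for each library. The tools were Cuffnorm, Cuffdiff, STAR 2.7.2b and Trim Galore 0.6.7, with the TAIR10 build, per the submitters' processing notes. Which step each served, which annotation and strand setting were used and how libraries were scaled is not given in the sources used here. Each FPKM depends on the library total, so a change in abundant genes shifts all others, and whole fragments were not recovered from rounded values, so no count model was run. The 9 libraries were grouped by the labels' genotype and fitted together with limma 3.58.1 (R 4.3.3, trended moderated variances, 6 residual degrees of freedom). The procedure was also run on simulated data with independent noise and far fewer changed genes than were called here. That run does not test the calls in these data. Genome positions, coding sequences and promoters were read from RefSeq TAIR10.1, where 32538 of the locus identifiers matched.

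The members and 17 other lists, with 116 genes of which 115 were in the files, were chosen with earlier results of these data known. From each list the text names the called genes with the 2 largest rises and falls in cyp71-3 and the largest each way in se-1, besides nearest profiles and neighbours. Alternatives changed the pseudocount, filter, scaling, variance model, genotypes fitted, block and libraries. Summaries used Python 3.11.15 with pandas 2.3.3.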

Additional observations from a re-analysis of the deposited data

How the results depend on the processing

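Of 486 log2 fold changes of members recomputed under alternatives, 471 kept their direction and side of the threshold. Changes of filter, variance model, block or genotypes fitted cannot move a log2 fold change, only its p-value. Nor can leaving out a library of the third genotype. Sums and shares were recomputed under median centring and with 1 library left out, not under quantile normalization. Of their differences, 63 of 63 kept their sign, but only sums under median centring could have failed. Those moved by less than the SD between libraries. With 3 libraries per genotype and no overlap, leaving out 1 could neither change a sign nor exceed that SD. Centring cannot change a share. Of 108 recomputed member counts, 101 equalled the reported count. Under quantile normalization, 1 member instead of 2 was lower and 7 instead of 6 were higher in cyp71-3 against Col-0, 5 instead of 4 were higher in se-1 against Col-0, and 6 instead of 5 were higher between the mutants. Counts over all genes stayed within 1.5 times the reported ones, with 4465 to 6380 higher in cyp71-3 against Col-0 (5871 reported), lowest with the filter at 5 FPKM and highest with none. Differences that changed sign were all uncalled: for AT5G10980 in cyp71-3 against Col-0, -0.00131 under median centring and -0.00964 without Col-0 replicate 3; for AT3G27360 in se-1 against Col-0, -0.0933 without Col-0 replicate 2 and -0.0715 without se-1 replicate 3; and for AT4G40040 between the mutants, 0.0931 under quantile normalization, 0.00356 without cyp71-3 replicate 1, 0.000444 without se-1 replicate 1 and 0.0178 without se-1 replicate 2. Over all libraries left out in turn, these reached 0.0367, 0.114 and -0.0458 at the other end of their ranges. The cause was not tested. Leaving out 1 library at a time, members called higher numbered 6 in cyp71-3 against Col-0, 4 to 5 in se-1 against Col-0 and 5 to 6 between the mutants, and those called lower 2, 2 to 3 and 2.

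Libraries with the same replicate number were not seen to deviate together (correlations from -0.137 to 0.043, and the same number correlated best in 6 of 18 pairs). A batch shared in another arrangement would not show in this check, and the labels give none. With a replicate block, 6 members were called higher and 2 lower in cyp71-3 against Col-0, 4 and 2 in se-1, and 5 and 2 between the mutants, the counts of the fit without it. Over all genes the block called 5717 higher and 6147 lower, 4639 and 4599, and 5574 and 5998. Depth in fragments is unknown, which limits CENH3 and the other low genes the most.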

Other observations

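Within se-1, replicate 3 held the highest value of all 5 H3.1 genes and of CENH3, and its H3.1 share (40.3%) lay above those of replicates 1 and 2 (37.7% and 37.5%). Its summed H4 (689 FPKM) was also the highest of the 3, against 626 and 671, while its summed H3.3 (729) lay between 696 and 736. Summed H3.1 therefore spread more in se-1 (SD 35.6 FPKM, n = 3) than in Col-0 (9.99) or cyp71-3 (12.6). The se-1 libraries with replicate 3 left out still stood above Col-0 in summed H3.1, by 91.1 FPKM on average. Judged by the smallest steps between low values, replicate 3 of se-1 was also the deepest of all libraries. Its depth was 1.56 times that of the least deep, against 1.21 and 1.035 times for replicates 1 and 2. The part of depth in these values was not tested.

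Within a class, copies that encode the same protein took different shares between genotypes. AT4G40030 supplied 38.7% to 40% of summed H3.3 FPKM in Col-0 and 32.0% to 32.5% in cyp71-3, and AT5G10980 23.2% to 24.5% and 29.0% to 29.2%. Among H3.1 genes, AT5G10390 supplied 7.73% to 8.50% in Col-0, 7.09% to 7.47% in cyp71-3 and 10% to 11.2% in se-1. AT5G10400 supplied 18.7% to 20.0% in Col-0 and 16.0% to 16.5% in both mutants. These shares were not tested.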
